A study of Danio rerio with 6 samples.

Results

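Small GTPases and the genes whose names begin like theirs were followed between sorted cone photoreceptors and the other sorted cells of the adult zebrafish retina. The members were the probe sets whose gene symbol began with rab, arf, arl or rac and a digit, or with cdc42, ras, hras, kras, nras, rap1, rap2, ral, ran or sar1, together with the *rhogb*, *rhocb* and *rhoaa* genes and others named like them. This rule found 131 probe sets of 108 genes among 15502 tested probe sets, of which 10795 carried 1 gene symbol (8793 genes). A further probe set matched the rule but carries several symbols, and it was neither named nor counted. The names alone do not make a family. According to what each gene is known to encode, 95 probe sets of 77 genes stand for GTPases, and 36 probe sets of 31 genes stand for exchange factors, activating proteins, binding partners and an unrelated RNA-binding protein gene that shares only the letters.

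The fish were untreated adults of the line Tg(3.2TalphaCP:EGFP). In this transgene a fragment of the cone transducin alpha promoter drives EGFP in cones. Dissociated retinae, freed of pigment epithelium and lens, were sorted into GFP-positive and GFP-minus cells, with 3 biological replicates each. Each replicate was hybridized to 1 Affymetrix Zebrafish array. Retinae of several fish were pooled for dissociation. No source used here says whether equal replicate numbers mark the same pool of fish. The labels call both populations cone cells. The GFP-minus population is taken here as the cells sorted without EGFP signal.

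Small GTPases are switches that are active with bound GTP and inactive with bound GDP. Exchange factors (GEFs) load GTP, activating proteins (GAPs) speed its hydrolysis, and dissociation inhibitors (GDIs) hold the lipid-bearing proteins in the cytosol. Rab, Arf and Sar proteins direct membrane traffic, Rac and Cdc42 proteins the actin cytoskeleton, Ras, Rap and Ral proteins growth and adhesion signals, and Ran the passage between nucleus and cytoplasm. In photoreceptors, membrane traffic and the release of lipid-bearing cargo by Arl proteins supply the outer segment, where light is detected.

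The values are log2 signals per probe set after GCRMA, a method that corrects background by probe sequence and normalizes between arrays. The table has a shared lowest value of 2.17, at which 10.3% to 11.7% of the probe sets of an array lay, and a signal there or close to it cannot be told from background. Of the members, 3 probe sets lay at this value on every array, 31 had a mean under 3, and 81 had a mean above the median of all probe sets (4.79). A signal also depends on how well a probe set binds its transcript, so levels are compared only within a probe set. Marker lists were read beside the members. Of 18 measured cone genes, 15 were higher in GFP-positive cells and none was lower (limma; unadjusted p under 0.05 for 17 higher and 0 lower), and their summed log2 signal was 16.4 to 16.8 in GFP-positive and 9.86 to 12.02 in GFP-minus arrays. Of 10 rod genes, 1 was higher and none was lower (limma; unadjusted p under 0.05 for 9 higher and 0 lower). Their median difference was 1.34, with summed signals of 16.4 to 16.8 and 14.9 to 16.0. Of 16 leukocyte genes 12 were lower in GFP-positive cells, with summed signals of 11.4 to 12.6 against 15.5 to 15.9, and 2 of these genes lay at the lowest value on all arrays of either population. Of 13 erythrocyte genes 10 were lower, with summed signals of 12.6 to 13.1 against 15.6 to 16.0. Of 17 genes induced by cell dissociation stress 10 were lower, with summed signals of 12.9 to 13.4 against 14.9 to 15.5. With single arrays left out, these counts ran from 3 to 16 for cone, 0 to 4 for rod, 5 to 12 for leukocyte, 5 to 10 for erythrocyte and 2 to 6 for stress genes. In sorted populations of mixed cells, fewer cells of a type and less RNA per cell cannot be told apart.

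Few members passed the test. In limma, with Benjamini-Hochberg adjustment over all probe sets and a threshold of 0.05, 4 of the 131 probe sets were higher in GFP-positive cells and 4 were lower (unadjusted p under 0.05 for 17 and 18), and 123 were not called. Over all tested probe sets 2.99% were called higher and 4.69% lower. The share of members was 3.05% in each direction, close to that of all probe sets for higher calls and under it for lower calls. The higher members were *rab28*, *rangrf*, *rassf1* and *rasgef1bb*, and the lower ones *rhogb*, *rhocb*, *arf5* and *rasgrp4*. Only *rab28*, *rhogb*, *rhocb* and *arf5* of these encode GTPases. Of the 95 GTPase probe sets, 1.05% were called higher and 3.16% lower, both under the shares over all probe sets. These shares rest on 1 and 3 probe sets, too few to show a lower share. The median difference of the members was 0.00 on the log2 scale, against 0.01 over all probe sets. The GFP-positive arrays lay all above the GFP-minus arrays for 20 members (15.3%, against 13.9% of all probe sets) and all below for 26 (19.8%, against 13.0%). For the GTPases alone these shares were 11.6% and 22.1%. Members were brighter than all probe sets (median level 6.36 against 4.79). Above the median level, 19.8% of members lay all above and 23.5% all below, against 20.9% and 17.8% of all such probe sets. For the GTPases above that level these shares were 13.8% and 27.6%. Their median difference was -0.27, against 0.08 for all probe sets above that level. There 4.94% of members were called in each direction, against 5.20% higher and 7.52% lower. The counts depend on the scaling of the arrays. Centring each array on its median, which raised the median difference of all probe sets by 0.23, gave 34 higher and 10 lower members. Centring also moves values that do not vary. The 34 included *rab18b* and a *cdc42ep5* probe set, both at the lowest value on all 6 arrays, so part of this count came from the shift alone. The same limit holds for genes counted as higher with median centring in the lists below. Scaling to the hybridization controls, bacterial and phage transcripts added before hybridization, moved the median difference of all probe sets by -0.74. It gave 2 higher and 35 lower members. The shares of all probe sets called under these scalings were not set beside these counts. The counts therefore show nothing particular to the members, and the same holds for the list counts under other settings below.

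**Figure D1:**
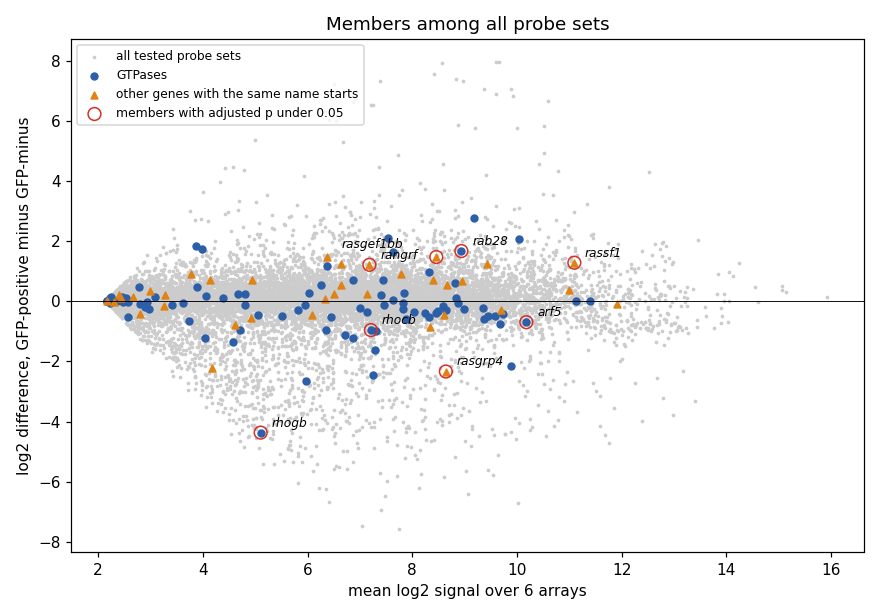
Mean log2 signal over the 6 arrays (horizontal axis) and log2 difference of GFP-positive minus GFP-minus cells (vertical axis) for all 15502 tested probe sets (grey), GTPase members (blue circles) and the other members (orange triangles). Red rings mark the 8 members with an adjusted p under 0.05, and *rhogb* has the lowest difference of all members at -4.36.

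Among the Rab genes, which direct vesicles between compartments, *rab28* was the one that passed the test. Rab28 is found at the photoreceptor outer segment, and mutations of the human gene cause cone-rod dystrophy. Its log2 signal was 10.00, 9.87 and 9.44 on the GFP-positive and 8.44, 7.72 and 8.14 on the GFP-minus arrays. All GFP-positive arrays lay above all GFP-minus arrays. The difference of 1.67 (standard error 0.25, limma adjusted p = 0.0323) is 3.19-fold, with a 95% confidence interval of 2.00-fold to 5.08-fold. The call was kept without GFP-minus replicate 1 (adjusted p = 0.0473) and lost without any other array (0.0772 to 0.123).

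The other 43 Rab probe sets were not called, and 40 of all 44 differed by less than 1 on the log2 scale. Over all 15502 tested probe sets, 13317 did so. Some Rab probe sets lay at background, such as *rab18b* at 2.17 on all arrays, where no difference can be seen. The median of the 44 was -0.05, with 3 probe sets (6.82%) whose GFP-positive arrays lay all above and 9 (20.5%) whose arrays lay all below the GFP-minus arrays, against 13.9% and 13.0% of all probe sets. Of the Rab genes of the early secretory pathway, *rab1bb* had signals of 8.46, 8.83 and 9.11 in GFP-positive cells against 7.94, 7.98 and 7.60 in GFP-minus cells, without overlap (difference 0.96, limma adjusted p = 0.0774). Its relative *rab1ab*, which also acts between endoplasmic reticulum and Golgi, had 8.87, 9.36 and 9.79 against 9.56, 9.77 and 10.14, which overlapped. Their difference in response was not tested. The signal of *rab2a*, another gene of this step, was 11.11, 11.59 and 11.50 against 11.38, 11.32 and 11.48, with a 95% confidence interval of 0.770-fold to 1.32-fold.

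For the Golgi and recycling Rabs, some of which carry opsin-bearing membrane in other vertebrates, no difference passed the test. *rab6a*, a gene of Golgi traffic, had 8.62, 9.38 and 9.37 in GFP-positive cells against 8.08, 8.47 and 8.97 in GFP-minus cells, which overlapped. The recycling endosome gene *rab11ba* lay at 8.22, 8.28 and 8.40 against 8.25, 9.52 and 8.21, so that GFP-minus replicate 2 stood above the other arrays. The relatives *rab11a* (4.91, 4.61 and 4.72 against 5.03, 5.16 and 4.45) and *rab11bb* (6.65, 6.14 and 5.73 against 6.30, 5.67 and 5.67) overlapped too. A weaker *rab11bb* probe set had 3.47, 3.60 and 3.69 against 3.37, 3.51 and 4.09. Its difference of -0.07 had the opposite sign to the 0.29 of the stronger one. *rab14*, which links Golgi and endosomes, had 8.81, 8.76 and 8.98 against 9.07, 8.98 and 9.30, with a difference of -0.27 (limma adjusted p = 0.273). Its 95% confidence interval ran from -0.55 to 0.02.

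The early endosome gene *rab5aa* had 9.68, 9.72 and 9.19 in GFP-positive cells against 10.20, 10.03 and 9.62 in GFP-minus cells in the probe set with the stronger signal, and 7.49, 7.83 and 7.44 against 8.09, 8.01 and 8.38 in the other. Only the second was without overlap (limma adjusted p = 0.124, against 0.390 for the first). *rab18a*, a gene of lipid droplets and endoplasmic reticulum, had 6.10, 6.23 and 6.21 against 6.35, 6.85 and 6.91, also without overlap (difference -0.52, adjusted p = 0.187, and 0.0184 without GFP-minus replicate 1). *rab4a*, of rapid recycling, lay at 3.91, 4.38 and 4.05 against 3.58, 3.86 and 3.50 without overlap (difference 0.47, adjusted p = 0.212). *rab3c*, a synaptic vesicle gene, lay at 8.20, 7.87 and 7.48 against 8.63, 8.21 and 7.76, which overlapped.

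The Rab genes with the most negative differences did not pass the test either. *rab32a*, of lysosome-related organelles such as melanosomes, had 7.47, 5.89 and 6.08 in GFP-positive cells against 7.72, 8.51 and 8.05 in GFP-minus cells. The difference was -1.61 (limma adjusted p = 0.176), and GFP-positive replicate 1 lay close to the GFP-minus arrays. *rab20*, known from phagosomes of macrophages, had 6.30, 6.33 and 6.16 against 6.63, 8.44 and 7.38 (difference -1.22, adjusted p = 0.273). *rab35b*, of endosomal recycling, had 6.18, 6.05 and 6.22 against 7.24, 7.69 and 6.87 (difference -1.12, adjusted p = 0.0653). Its paralog *rab35a* lay at 4.15, 4.12 and 4.15 against 4.12, 3.85 and 3.92 and was called only without GFP-minus replicate 1 (0.0339) among the 6 left-out arrays. Neither *rab20* nor *rab35b* overlapped between the populations. The leukocyte, erythrocyte and stress genes given above were mostly lower in the same GFP-positive arrays, and their part in these differences was not tested.

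**Figure D2:**
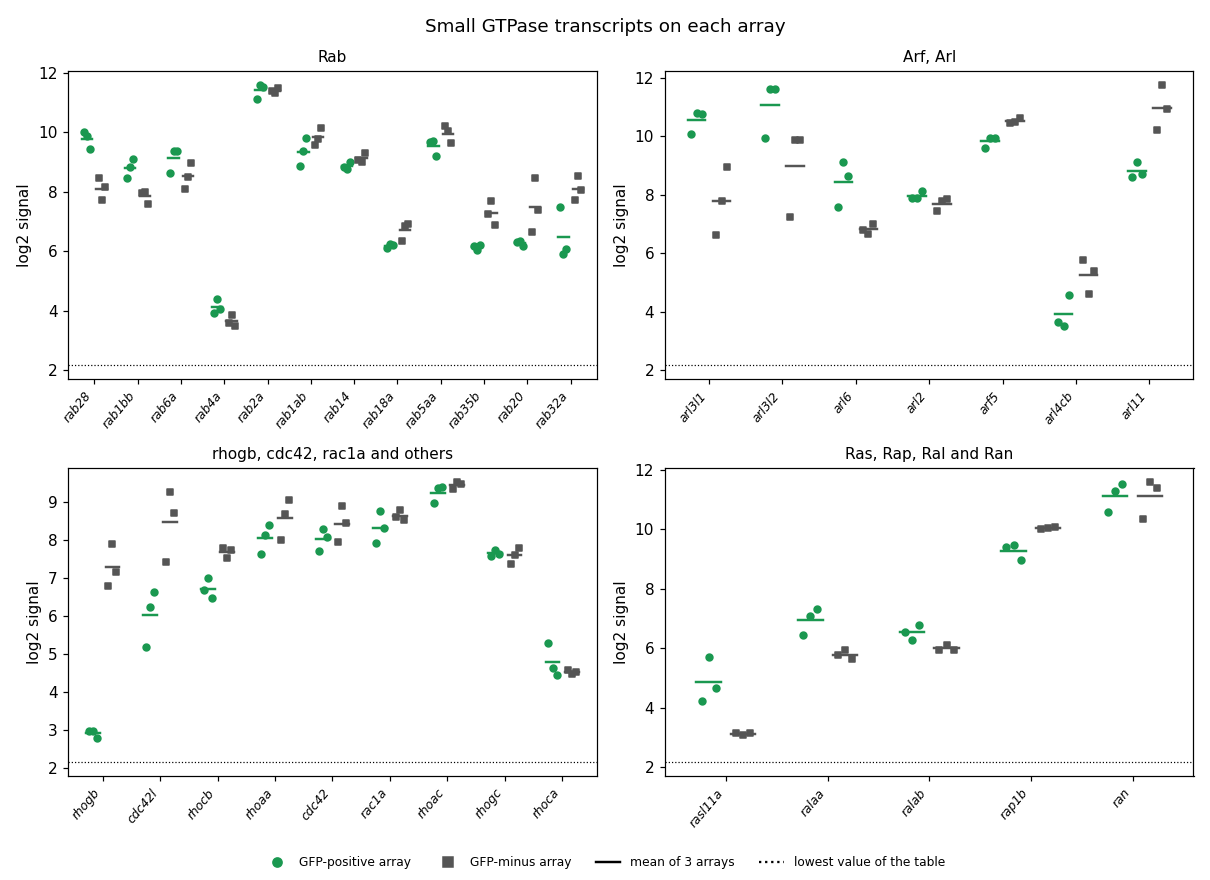
Log2 signal (vertical axis) of GTPase genes on each GFP-positive (green circles) and GFP-minus array (grey squares), with the mean of 3 arrays as a line and the lowest value of the table, 2.17, dotted. The GFP-positive signals of *rhogb* lie between 2.79 and 2.99 near that value. The 2 populations do not overlap for *rab28*, *arl3l1*, *arf5*, *rhogb* and many other genes shown, such as *arl6* and *rap1b*.

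The Arf and Arl genes spread more widely than the Rab genes, with a median level of 7.63 against 6.79 for the Rab probe sets. Of 13 probe sets of 10 genes, 5 differed by less than 1, with differences from -2.66 to 2.77, and 1 was called, *arf5*. This is a share of 7.69% lower, against 4.69% of all probe sets, but 1 probe set of 13 cannot show a higher share. Arf5 recruits coat proteins at the Golgi. Its signal was 9.59, 9.95 and 9.95 in GFP-positive cells against 10.46, 10.49 and 10.63 in GFP-minus cells, without overlap. The difference of -0.69 (standard error 0.12, limma adjusted p = 0.0457) puts the GFP-positive level 1.62-fold below the GFP-minus level, with a 95% confidence interval of 1.29-fold to 2.02-fold. The call was kept without GFP-positive replicate 1 (adjusted p = 0.0392) and lost without any other array (0.101 to 0.144).

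Arl3 with GTP frees lipid-bearing cargo from its carriers in the photoreceptor. The Arl3-like gene *arl3l1* had 10.09, 10.82 and 10.75 in GFP-positive cells against 6.61, 7.80 and 8.95 in GFP-minus cells. The populations did not overlap, and the difference of 2.77 was the highest of all members, but the GFP-minus arrays were spread over more than 2 log2 units (standard error 0.67, limma adjusted p = 0.0972). GFP-minus replicate 3, its highest GFP-minus array, also had the highest summed cone marker signal of the GFP-minus arrays, at 12.02. The other GFP-minus arrays did not keep this order, as the cone marker *pde6c* had 6.81, 6.04 and 8.96. Most rod genes of the list, such as *gnat1* with 12.97, 13.20 and 13.99, rose in the same order as *arl3l1*. The rod list genes *gnb1a*, *rom1a* and *prph2a* did not. The part of cones or rods in this spread was not tested. The call was made under both scalings given above and with dim probe sets left out. It was not made with quantile normalization (limma adjusted p = 0.0747), a block on replicate number (0.108) or a robust prior with a trend (0.101). Nor was it made with any single array left out (0.0684 to 0.264).

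For *arl3l2*, the strongest probe set read 9.93, 11.61 and 11.64 in GFP-positive cells against 7.25, 9.87 and 9.87 in GFP-minus cells. The other probe set read 7.06, 9.48 and 9.19 against 5.17, 6.91 and 7.37. Replicate 1 was the lowest array of its population in both probe sets and both populations, and the populations overlapped for the other probe set only. The differences were 2.06 and 2.09 (limma adjusted p = 0.331 and 0.317). *arl6*, whose product recruits the ciliary BBSome coat and is mutated in human Bardet-Biedl syndrome, had 7.57, 9.14 and 8.63 against 6.80, 6.65 and 6.99. Its populations did not overlap, with GFP-positive replicate 1 nearest to the GFP-minus arrays (difference 1.63, adjusted p = 0.124, and 0.0354 without that array). *arl2*, which shares carriers with Arl3 and acts in tubulin folding, had 7.90, 7.90 and 8.12 against 7.45, 7.78 and 7.86, a difference of 0.27 without overlap (adjusted p = 0.350). *arl2bp*, the gene of a protein that binds Arl2 and Arl3 with GTP, had 6.08, 7.88 and 7.36 against 5.81, 4.66 and 6.40, which overlapped.

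On the other side stood *arl11* and *arl4cb*. *arl11*, an Arf-like gene known from macrophages in mammals, had 8.61, 9.12 and 8.73 in GFP-positive cells against 10.21, 11.77 and 10.92 in GFP-minus cells. Its second probe set had 5.25, 4.68 and 3.98 against 6.88, 8.65 and 6.34. Neither overlapped, and the differences of -2.15 and -2.66 had a limma adjusted p = 0.0690 and 0.131. The first was called without GFP-minus replicate 1 (0.0491). *arl4cb* had 3.63, 3.50 and 4.58 against 5.76, 4.59 and 5.39, with GFP-positive replicate 3 and GFP-minus replicate 2 at the same level.

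*rhogb*, a gene for RhoG, which acts upstream of Rac in cell migration and phagocytosis, had signals of 2.99, 2.99 and 2.79 on the GFP-positive arrays and 6.79, 7.90 and 7.17 on the GFP-minus arrays. The difference of -4.36 (standard error 0.31, limma adjusted p = 0.00650) is a 20.6-fold lower signal in GFP-positive cells, with a 95% confidence interval of 11.6-fold to 36.6-fold. All GFP-positive arrays lay close to background, so the size of this fold rests on the background step. The call was kept without any of the 6 arrays (adjusted p = 0.0112 to 0.0435). The related gene *rhogc* had 7.59, 7.74 and 7.64 against 7.38, 7.62 and 7.81, a difference of 0.05. Within an array, the log2 ratio of *rhogb* to *rhogc* was 4.42 lower in GFP-positive cells, a quantity that array scaling does not change (exact permutation test, two-sided, p = 0.1, the smallest that 3 arrays against 3 allow). This pair and the other paralog pairs below were tested because they hold a gene called in these same arrays. The p of such a pair therefore gives no support apart from that call. The leukocyte, erythrocyte and dissociation stress lists all differed in the same direction, and their part in the difference of *rhogb* was not tested.

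RhoC, a close relative of RhoA in contraction and migration, was represented by *rhocb* and *rhoca*. The called probe set of *rhocb* had 6.70, 7.01 and 6.49 in GFP-positive cells against 7.79, 7.54 and 7.74 in GFP-minus cells, without overlap (difference -0.96, limma adjusted p = 0.0404), which is 1.94-fold lower. Its second probe set had 5.89, 6.20 and 5.51 against 6.35, 7.08 and 7.06 (difference -0.96, adjusted p = 0.157), and a further one had 2.92, 3.59 and 3.72 against 3.23, 3.77 and 5.22, which overlapped. The call of the first was lost without any array (0.0539 to 0.127). *rhoca* lay at 5.30, 4.65 and 4.46 against 4.59, 4.49 and 4.54. The log2 ratio of *rhocb* to *rhoca* was 1.22 lower in GFP-positive arrays (exact permutation test, two-sided, p = 0.1).

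*cdc42l*, a gene like the polarity regulator *cdc42*, had 5.19, 6.25 and 6.64 in GFP-positive cells against 7.44, 9.28 and 8.72 in GFP-minus cells. The populations did not overlap, and in both replicate 1 was the lowest array (difference -2.45, limma adjusted p = 0.120). The strongest probe set of *cdc42* itself had 7.73, 8.29 and 8.09 against 7.96, 8.91 and 8.44, and its 3 other probe sets were not called. The RhoA genes, which drive actomyosin contraction, overlapped between the populations: *rhoaa* had 7.63, 8.14 and 8.41 against 8.01, 8.70 and 9.06. *rhoac* had 8.97, 9.37 and 9.39 against 9.35, 9.54 and 9.49, and *rhoab* had 3.26, 3.46 and 3.29 against 2.48, 3.74 and 4.20. *rac1a*, a gene of lamellipodia that is also known to act in photoreceptors, had 7.92, 8.77 and 8.32 against 8.61, 8.80 and 8.52 (difference -0.31, adjusted p = 0.584).

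**Figure D3:**
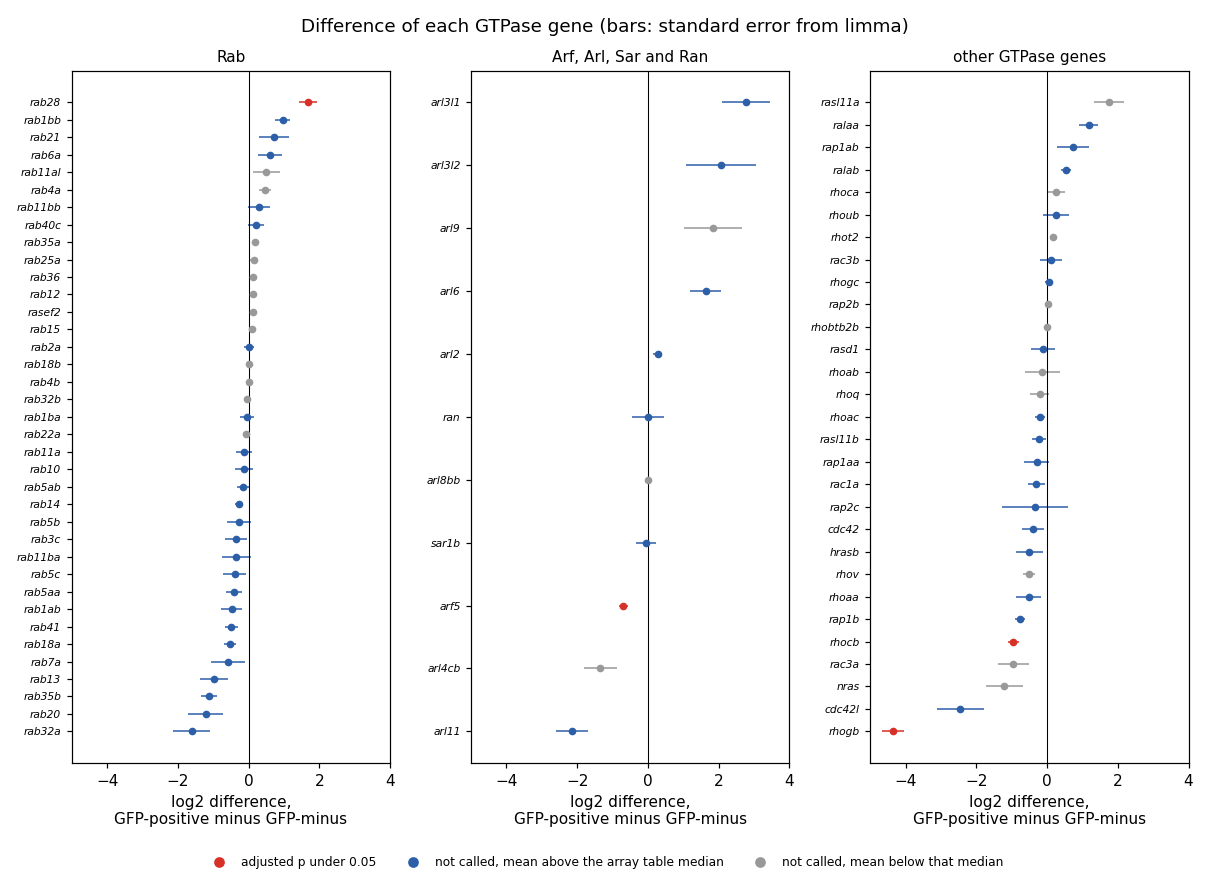
Log2 difference of GFP-positive minus GFP-minus cells for the 77 GTPase genes, 1 probe set a gene, with the standard error of the limma fit as bars. Red points have an adjusted p under 0.05, blue points were not called and have a mean above the median of all probe sets, and grey points lie below that median. Of the 77, 1 (1.30%) was higher and 3 (3.90%) were lower, against 2.99% and 4.69% of all probe sets.

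No gene of the Ras, Rap and Ral branch was called among 13 probe sets of 12 genes (limma; unadjusted p under 0.05 for 3 higher and 1 lower). With 2.99% called higher and 4.69% lower over all probe sets, so few probe sets cannot show a lower share. The GFP-positive arrays lay all above for 3 (23.1%) and all below for 2 (15.4%), against 13.9% and 13.0% of all probe sets. *rap1b*, of integrin-mediated adhesion and abundant in thrombocytes and leukocytes of mammals, had 9.41, 9.47 and 8.97 in GFP-positive cells against 10.03, 10.03 and 10.10 in GFP-minus cells, without overlap (difference -0.77, limma adjusted p = 0.0583). It was called without GFP-positive replicate 3 (0.0299). The Ral genes, whose products bind the exocyst that tethers secretory vesicles, had positive differences. *ralaa* had 6.43, 7.09 and 7.33 against 5.76, 5.93 and 5.64 (difference 1.17, adjusted p = 0.0827, and 0.0307 without GFP-positive replicate 1), and *ralab* had 6.54, 6.29 and 6.78 against 5.94, 6.10 and 5.94 (difference 0.54, adjusted p = 0.113). Neither overlapped. The Ras-like gene *rasl11a* had 4.22, 5.72 and 4.65 against 3.13, 3.07 and 3.13, where the GFP-minus arrays were low and nearly constant (difference 1.75, adjusted p = 0.0946).

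The nuclear transport GTPase gene *ran* had 10.58, 11.29 and 11.53 in GFP-positive cells against 10.35, 11.61 and 11.40 in GFP-minus cells. Replicate 1 was the lowest array in both populations, and the 95% confidence interval of the difference ran from 0.437-fold to 2.33-fold. For *rangrf*, which encodes a Ran-binding nucleotide release factor, the stronger probe set had 7.53, 7.71 and 8.13 against 6.80, 6.55 and 6.37, without overlap. The difference of 1.21 (standard error 0.20, limma adjusted p = 0.0402) is 2.32-fold. The call was lost without any array (0.0680 to 0.142) and under the hybridization-control scaling (difference 0.48, adjusted p = 0.199). A further *rangrf* probe set had 3.37, 4.98 and 5.16 against 3.89, 3.44 and 4.01, which overlapped.

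Of the 36 probe sets that share a name start but encode no GTPase, 3 (8.33%) were higher and 1 (2.78%) was lower, against 2.99% and 4.69% of all probe sets (limma; unadjusted p under 0.05 for 8 higher and 3 lower). *rasgef1bb*, a gene of the RasGEF domain family of exchange factors, had 9.25, 9.02 and 9.32 in GFP-positive cells against 7.73, 7.61 and 7.83 in GFP-minus cells. The difference of 1.47 (standard error 0.10, limma adjusted p = 0.00617) is 2.78-fold, with a 95% confidence interval of 2.30-fold to 3.36-fold, and the call was kept without any of the 6 arrays (0.0228 to 0.0388). Under the hybridization-control scaling it was lost (difference 0.74, adjusted p = 0.0576). Its paralog *rasgef1ba* had 11.37, 11.29 and 10.85 against 11.19, 10.23 and 10.96, which overlapped. The log2 ratio of the pair was 1.099 higher in GFP-positive arrays (exact permutation test, two-sided, p = 0.1). *rassf1*, whose human counterpart is a tumour suppressor that binds Ras-like GTPases and microtubules, had 11.54, 11.53 and 12.14 against 10.20, 10.52 and 10.64, a 2.43-fold difference (adjusted p = 0.0467). That call was lost without any array (0.0805 to 0.145) and under the hybridization-control scaling (difference 0.55, adjusted p = 0.194).

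The lower gene was *rasgrp4*, which encodes a Ras exchange factor known from myeloid cells and mast cells of mammals. Its signals were 7.67, 7.18 and 7.58 in GFP-positive cells against 9.37, 9.82 and 10.23 in GFP-minus cells, without overlap. The difference of -2.33 (standard error 0.27, limma adjusted p = 0.0181) is 5.04-fold. The call was kept without GFP-minus replicate 1 or 3 and lost without any other array (0.0556 to 0.0808). *rasgrp3*, of the same exchange factor family, had 7.05, 6.42 and 6.42 against 6.48, 6.35 and 6.27. The log2 ratio of *rasgrp4* to *rasgrp3* was 2.59 lower in GFP-positive arrays (exact permutation test, two-sided, p = 0.1, and also 0.1 when adjusted over the 4 pairs compared in this way). The leukocyte, erythrocyte and stress genes were mostly lower in the same arrays, and their part in the difference of *rasgrp4* was not tested.

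Members that did not pass the test included *rab3ip*, which encodes Rabin8, the exchange factor of Rab8 at the base of the cilium. It had 10.40, 9.57 and 10.13 in GFP-positive cells against 9.28, 8.33 and 8.80 in GFP-minus cells, without overlap (difference 1.23, limma adjusted p = 0.133). *ranbp9*, a scaffold gene, had 9.41, 9.46 and 8.99 against 8.97, 8.19 and 8.65 in one probe set and 9.22, 8.83 and 8.71 against 8.57, 8.17 and 8.45 in the other. Neither overlapped (adjusted p = 0.232 and 0.205). *rassf8b* had 8.05, 7.08 and 6.68 against 6.42, 5.98 and 5.64, and the Ral exchange factor gene *ralgps2* had 4.72, 4.11 and 3.86 against 3.25, 3.28 and 3.41, both without overlap. *cdc42se1*, which encodes a small effector of Cdc42, had 3.13, 2.91 and 3.17 against 4.40, 6.02 and 5.43, with all GFP-positive arrays near background (difference -2.21, adjusted p = 0.0650, and 0.0220 without GFP-minus replicate 1).

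The regulators and effectors of small GTPases were read from lists of genes with other names. Of 26 measured GEF genes, 1 was higher and 3 were lower (limma; unadjusted p under 0.05 for 3 and 5), with a median difference of -0.11. Over all tested probe sets 2.99% were called higher and 4.69% lower. The exchange factor gene *plekhg5a* had 5.40, 6.78 and 6.90 in GFP-positive cells against 3.12, 2.44 and 3.55 in GFP-minus cells, near background in the latter (difference 3.33, adjusted p = 0.0388). *rin3*, a Rab5 GEF gene, had 3.33, 3.41 and 3.49 against 5.30, 6.47 and 5.73 (5.36-fold lower, adjusted p = 0.0240). Its GFP-positive signals lay near background, so the size of this fold rests on the background step. The Rap GEF gene *rapgef6* had 4.31, 4.20 and 4.24 against 6.52, 6.48 and 6.83 (5.14-fold lower, adjusted p = 0.00335). *dennd4c*, a Rab10 GEF gene, was 1.69-fold lower (adjusted p = 0.0467). The list held 6 higher and 4 lower genes with median centring, and 2 and 10 when scaled to the hybridization controls. With single arrays left out, it held 0 to 1 higher and 1 to 3 lower genes, and *rapgef6* kept its call in all 6 cases. *plekhg5a* kept it only without GFP-positive replicate 1 (0.0361), *dennd4c* only without GFP-minus replicate 1 (0.0219), and *rin3* only without GFP-minus replicate 1 or 2 (0.0264 and 0.0267).

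Of 32 measured GAP genes, 1 was higher and 1 was lower (limma; unadjusted p under 0.05 for 6 and 3), with a median difference of 0.17. The shares over all probe sets were 2.99% and 4.69%. The counts of GAP genes were 10 and 2 with median centring, and 0 and 6 when scaled to the hybridization controls. *arhgap12a* had 9.86, 9.74 and 10.30 in GFP-positive cells against 8.38, 8.38 and 8.68 in GFP-minus cells (2.81-fold higher, adjusted p = 0.0203). *myo9b*, which encodes a motor myosin with a GAP domain known from mammalian immune cells, had 4.35, 4.29 and 4.13 against 7.12, 8.05 and 7.47 (9.80-fold lower, adjusted p = 0.00805). The arrays of the populations overlapped for neither. The call of *myo9b* was lost without GFP-positive replicate 3 (0.0516). That of *arhgap12a* was kept without GFP-positive replicate 3 (0.0464) and lost without any other array (0.0524 to 0.0828) and under the hybridization-control scaling (0.0737).

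Of 17 measured genes of GDIs, escort proteins and prenylation enzymes, none was higher and 3 were lower (limma; unadjusted p under 0.05 for 5 higher and 3 lower). The shares over all probe sets were 2.99% and 4.69%. Median centring gave 8 higher and 3 lower genes of this list, and scaling to the hybridization controls 0 and 5. *arhgdig*, a GDI gene, had 7.74, 6.14 and 6.17 in GFP-positive cells against 11.36, 11.46 and 11.13 in GFP-minus cells (24.9-fold lower, adjusted p = 0.0151), and GFP-positive replicate 1 was the highest of its population. The call was kept without that array (0.00633) and lost without any other (0.0500 to 0.0704). *arhgdia*, another GDI gene, had 9.26, 9.41 and 9.22 against 11.01, 11.43 and 11.22 (3.80-fold lower, adjusted p = 0.00544), with a call kept without any of the 6 arrays. *nutf2l*, like the carrier that returns Ran to the nucleus, was 5.08-fold lower (adjusted p = 0.0306), a call kept only without GFP-minus replicate 1 (0.0396).

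Of 57 measured effector genes, 8 were lower and none was higher (limma; unadjusted p under 0.05 for 10 and 3), with a median difference of -0.01. Over all tested probe sets 4.69% were called lower and 2.99% higher. The largest differences of the called effector genes were those of *ncf1*, *wasb*, *unc13d* and *iqgap1*. *ncf1*, which encodes the organizer of the Rac-dependent phagocyte oxidase and also stands in the leukocyte list, had 3.23, 3.13 and 3.36 in GFP-positive cells against 8.62, 10.31 and 9.52 in GFP-minus cells (adjusted p = 0.00702). *wasb*, a gene for the Cdc42 effector WASP, had 4.76, 4.44 and 4.55 against 8.55, 9.85 and 9.48 (26.3-fold lower, adjusted p = 0.00804). *unc13d*, of granule release with Rab27, lay at a constant 2.51 on all GFP-positive arrays and at 6.71, 6.95 and 6.95 on the GFP-minus arrays. *iqgap1*, a scaffold gene for Rac and Cdc42, had 3.77, 3.20 and 3.07 against 7.04, 6.92 and 7.07. The GFP-positive signals of *ncf1*, *unc13d* and *iqgap1* lay near background, so the size of their folds rests on the background step. These 3 calls were kept without any array, and that of *wasb* was lost without GFP-positive replicate 3 (0.0518). The number of lower effector genes was 3 to 8 with single arrays left out, 9 with median centring and 14 when scaled to the hybridization controls. Median centring also gave 12 higher effector genes. The leukocyte, erythrocyte and stress genes were mostly lower in the same arrays, and their part in the called differences was not tested.

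**Figure D4:**
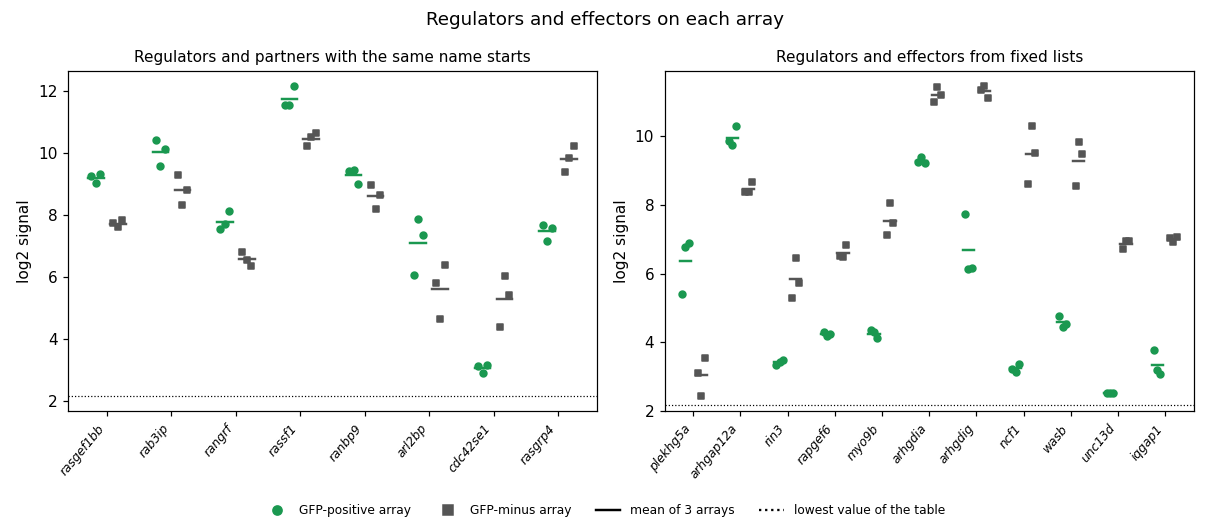
Log2 signal (vertical axis) of regulators and partners that share a name start with a GTPase (left) and of called genes from the lists of exchange factors, activating proteins, dissociation inhibitors and effectors (right), on each GFP-positive (green circles) and GFP-minus array (grey squares), with the mean of 3 arrays as a line. The constant GFP-positive value of *unc13d*, 2.51, lies close to the dotted lowest value of the table.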

How the data were processed

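RNA of 3 GFP-positive and 3 GFP-minus sorted samples was measured on 6 arrays. The authors deposited log2 values per probe set, made with GCRMA according to the submitters' processing notes. No source used here gives its version or settings. No further normalization was applied in the main fit. There is no read depth for an array, and 3 arrays per population limit the precision. The table held 15617 probe sets, from which the 115 Affymetrix control sets were removed. Gene names came from the platform annotation, and all 131 member symbols matched the current symbol of their gene identifier. The names were not checked against probe sequences.

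The comparison of the populations used lmFit and eBayes of limma 3.58.1 in R 4.3.3, two-sided, on all 15502 probe sets. The procedure was tested on simulated independent values without a shared lowest value, scaling shifts or pairing. That test therefore says nothing about the limits that these set here. Members, gene lists and alternatives were chosen with earlier results of these data known. The naming rule gives values per array for called GTPases without overlap, for the strongest member of each branch, and for listed genes known from photoreceptors or blood cells. Members that are not GTPases are named if called. Other members given with values were chosen after their values were seen. From the lists, up to 4 called genes per direction with the largest difference were named. Lists and paralog pairs use the strongest probe set of a gene. Only paralog pairs that hold a called gene were tested. Exact permutation tests used scipy 1.17.1 and figures matplotlib 3.10.9. Alternatives were quantile normalization, a filter that dropped dim probe sets, a block on replicate number, median centring, scaling to 18 hybridization-control probe sets, an intensity trend with a robust prior, stricter thresholds and leaving out each array. One item is not reported here.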

Additional observations from a re-analysis of the deposited data

How the results depend on the processing

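The 4 higher and 4 lower members depended on the processing. With dim probe sets left out, fewer probe sets were tested, and the variance shared between probe sets was estimated anew. Then 9 were higher and 10 lower, and all 8 calls were kept. For *arl3l1* the difference stayed at 2.77 while the standard error fell from 0.67 to 0.56 (limma adjusted p = 0.0130). For *arf5* the standard error rose from 0.12 to 0.20. Median centring gave 34 and 10, the hybridization-control scaling 2 and 35. The 34 included members constant at the lowest value, which the centring alone moved. A block on replicate number gave 2 and 0, namely *rab3ip* and *rasgef1bb*. An adjusted p under 0.01 left 1 and 1, and a minimum of 2-fold left all 4 higher and 2 lower members. Among GTPase genes alone, with 1 probe set a gene, 1 (1.30%) was higher and 3 (3.90%) were lower. Without single arrays 1 to 3 were higher and 1 to 5 lower. Quantile normalization and the robust prior with a trend stayed within 1.5 times the counts. Shares of all probe sets were not set beside the counts under these other settings, which therefore show nothing particular to the members. The deviations of same-numbered arrays from their population means correlated at 0.55, 0.06 and 0.27. Arrays of different numbers correlated at -0.44 to 0.36, and those of replicate 1 with other numbers at -0.44 to -0.25. These values do not settle whether the numbers pair the samples, and the reported fit does not pair them. The block left 4 higher cone, 0 higher rod, 1 lower leukocyte, 4 lower erythrocyte and 4 lower stress genes. Of the regulators it left 1 lower exchange factor, 1 higher and 0 lower activating proteins, 1 lower gene of the inhibitor list and 2 lower effectors, with *myo9b* losing its call (adjusted p = 0.0583).

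Of the named genes, the following directions turned, and none of these genes was called in the reported fit. Not every further probe set of a gene was followed. Under the hybridization-control scaling the log2 differences were -0.46 for *arl2*, -0.44 for *rab11bb*, -0.73 for *rab2a*, -0.56 for *rab35a*, -0.27 for *rab4a*, -0.12 for *rab6a*, -0.20 for *ralab*, -0.72 for *ran*, -0.0512 and -0.21 for the *ranbp9* probe sets, -0.36 for *rasgef1ba*, -0.48 for *rasgrp3* and *rhoca*, and -0.68 for *rhogc*. Median centring gave 0.0938 for *rab11a*, 0.0894 for *rhoab* and 0.0122 for *rhoac*, and quantile normalization 0.0879 for *rab11a* and -0.0184 for *ran*. With single arrays left out the ranges were -0.35 to 0.0084 for *rab11a*, -0.58 to 0.0741 for *rab11ba*, -0.0843 to 0.16 for *rab2a*, -0.37 to 0.29 for *ran*, -0.63 to 0.23 for *rhoab* and -0.0551 to 0.16 for *rhogc*. For the weaker *rab11bb* probe set the range was -0.21 to 0.15. The causes were not tested.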

Other observations

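Small GTPases whose names the rule does not cover were measured for 14 genes of a fixed list. None was higher and 1 was lower (limma; unadjusted p under 0.05 for 1 higher and 3 lower), with a median difference of -0.01. The shares over all probe sets were 2.99% and 4.69%. The lower gene was *rras*, a relative of Ras known from adhesion and vessels, with signals of 5.30, 4.85 and 4.52 on the GFP-positive arrays against 6.83, 6.99 and 7.15 in GFP-minus cells (4.29-fold lower, limma adjusted p = 0.0153). The call was kept without replicate 1 of either population and lost without any other array (0.0516 to 0.0750).

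Of 6 measured thrombocyte marker genes, 1 was higher and 1 was lower in GFP-positive cells (limma; unadjusted p under 0.05 for 1 and 1), with summed log2 signals of 7.76 to 8.19 in GFP-positive and 7.13 to 7.51 in GFP-minus arrays. The sum mostly follows the higher gene, *apln*, with 7.55, 8.04 and 7.57 against 6.09, 5.99 and 6.54. The lower gene, *f5*, had 3.25, 2.83 and 3.09 against 5.46, 5.75 and 5.73. The remaining genes also had negative differences, and most lay near background. The median difference of the list was -0.29. Of 31 markers of other retinal neurons and glia, 3 were higher and 4 lower (4 and 6 unadjusted). The shares over all probe sets were 2.99% and 4.69%. The higher genes were *rlbp1a*, *vim* and *gfap*, and the lower ones *slc32a1*, *pax6a*, *thy1* and *slc1a3a*. Median centring gave 7 and 4, and scaling to the hybridization controls 0 and 15. The markers had summed signals of 15.5 to 15.6 in GFP-positive and 15.6 to 15.7 in GFP-minus arrays, a sum that joins genes of both directions.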
